A study of Mus musculus with 6 samples.

Results

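Expression of 10 thrombospondin and matricellular genes was followed in mouse aorta: Thbs1, Thbs2, Thbs3, Thbs4, Comp, Chad, Postn, Tnc, Sparc and Fn1. They were chosen by name, and each symbol matched 1 Ensembl gene ID, so 10 of the 55401 IDs in the count table are described. All 10 passed the low-count filter. The table holds 3 libraries of ApoE-/- mice (titled Apo-/- in the labels) and 3 of IL16-/-ApoE-/- mice, here named double mutants. By these labels every animal lacked apolipoprotein E, which clears remnant lipoproteins, and the groups differ by the additional loss of interleukin-16, a secreted ligand of CD4. Group names below are those of the labels. High-fat feeding began at 8 weeks of age and lasted 24 weeks in both groups, and aortic RNA was sequenced after selection for poly(A). The question is how the loss of interleukin-16 alters aortic expression after that diet. The sources used here do not say whether the numbered samples are separate animals, so each p-value reflects variation among the libraries in hand. That variation may be technical in part. The sex-linked transcripts given below differ between ApoE-/- 1 and the other libraries, so ApoE-/- 1 is not a technical repeat of ApoE-/- 2 or 3.

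Matricellular proteins are secreted into the extracellular matrix but act mainly as adaptors, linking cell-surface receptors, growth factors, proteases and structural fibres. Their production is low in the quiet adult artery and is known to increase in injury, remodelling and plaque growth. Thrombospondins fall into a trimeric branch (Thbs1 and Thbs2), which carries type 1 repeats and restrains angiogenesis, and a pentameric branch (Thbs3, Thbs4 and Comp), which lacks those repeats and binds collagen and other matrix proteins.

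Library totals ran from 65730552 to 85568269 counts in ApoE-/- and from 42861980 to 47208779 in the double mutants. Il16 was at 15.1 to 28.7 CPM (counts scaled to a common library size with TMM factors) in ApoE-/- and 7.93 to 12.2 CPM in the double mutants, and did not pass the test (adjusted p = 0.163). Apoe, labelled as deleted in both groups, was at 20.9 to 45.0 CPM in ApoE-/- and 137 to 183 CPM in the double mutants and passed as higher (log2 fold change 2.34, SE 0.33, adjusted p = 0.0369), so its transcript level was not equal in the groups. Gene totals do not show which part of Il16 or Apoe is deleted, and neither level checks the labels fully. The ApoE-/- libraries were not alike. ApoE-/- 1 had 474 CPM of Xist and 0.143 CPM of the Y-linked Ddx3y, whereas the other 5 libraries had 0.497 to 6.21 and 70.1 to 136 CPM, so only ApoE-/- 2 and 3 share the sex pattern of the double mutants. The 8 contractile smooth muscle markers, which define the aortic media, were detected in every library and summed to 4491, 20161.5 and 28773 CPM in ApoE-/- 1, 2 and 3, beside 9015 to 10194 CPM for the double mutants. The 6 kidney tubule markers had no count in any ApoE-/- library, summed to 474 to 525 CPM in the double mutants, and all 6 rose. Those calls were lost with the replicate block and without any 1 double mutant library, where 0 genes of the whole table were called. In bulk tissue, fewer cells of a type and less RNA per cell cannot be told apart.

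None of the 10 genes passed the test between the groups (edgeR's quasi-likelihood test, Benjamini-Hochberg adjustment over 19833 genes, threshold 0.05). Over all tested genes 1.14% were called higher and 0.0605% lower in the double mutants. Of the 10, 5 had positive and 5 had negative log2 fold changes, with a median of 0.17 against -0.05 over all tested genes. An unadjusted p under 0.05 was found for 4 (Chad, Thbs4, Comp and Thbs3), where 15.9% of all genes lay. DESeq2 called 2, Thbs4 and Chad, both higher, against 6.23% of all genes called higher, and limma-voom called 0. In 4 of the 10 (Thbs4, Comp, Fn1 and Chad) every double mutant library lay above every ApoE-/- library, which was so for 14.9% of all genes. In none did every double mutant library lie below, which was so for 11.5%.

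**Figure D1:**
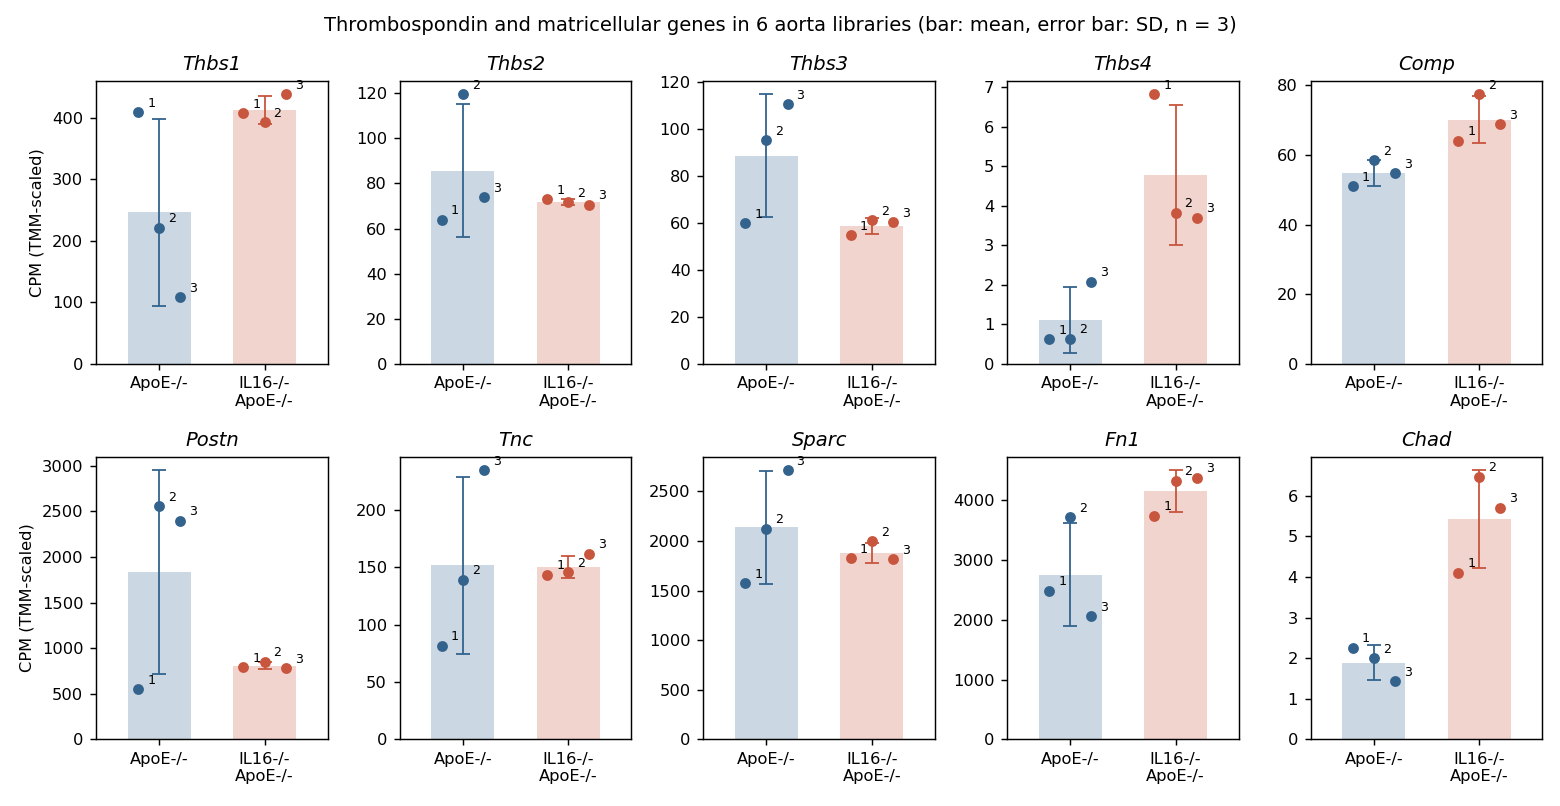
Each panel shows 1 gene as TMM-scaled CPM on a linear axis from 0. Points are libraries numbered as in the labels, bars are means and error bars are SD (n = 3). The double mutant points lie close together in most panels while the ApoE-/- points spread, as for Postn (550.2 to 2559.7 CPM against 783 to 850.0 CPM).

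Thbs1 encodes thrombospondin-1, which platelets store, which activates latent TGF-beta and which binds CD36 and CD47 (ENSMUSG00000040152, GRCm38 chromosome 2, 118111876 to 118127133, plus strand). ApoE-/- 1, 2 and 3 held 409.9, 221 and 108 CPM of Thbs1, and double mutants 1, 2 and 3 held 408, 393 and 438 CPM. ApoE-/- 1 lay inside the double mutant range, and ApoE-/- 2 and 3 lay below it. The fitted difference was 0.75 on the log2 scale (SE 0.46, adjusted p = 0.464, n = 3 and 3), and the SD within ApoE-/- was 153 CPM around a mean of 246 CPM. Against ApoE-/- 2 and 3 alone it was higher by 1.33 on the log2 scale (SE 0.31, adjusted p = 0.0270), in a fit that called 25.9% of all genes. The 6 platelet markers, none at 0 in any library, summed to 231, 13.9 and 39.8 CPM in ApoE-/- 1, 2 and 3, beside 34.0 to 49.9 CPM for the double mutants. The 6 adipocyte markers summed to 4569.6, 597 and 580.4 CPM in the same libraries, beside 4371 to 4709 CPM, and the 6 endothelial markers to 989.7, 677 and 562 CPM against 1144 to 1190.1 CPM. Of the adipocyte markers only Lep was called (log2 fold change 3.90, SE 0.38, adjusted p = 0.0168). Lep was at 0.871, 1.09 and 2.05 CPM in ApoE-/- 1, 2 and 3, beside 18.7 to 22.0 CPM. It was thus lowest in ApoE-/- 1, the ApoE-/- library with the highest adipocyte sum. The call was lost with the replicate block and without any 1 double mutant library. Summed over 8 genes, macrophage markers were at 4593, 2313 and 396 CPM in ApoE-/- 1, 2 and 3, beside 4362 to 6203 CPM. The part of these cell types in the Thbs1 values was not tested.

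Thbs2 encodes thrombospondin-2, an inhibitor of angiogenesis needed for orderly collagen fibrils (ENSMUSG00000023885, chromosome 17, 14665500 to 14694235, minus strand). Its level was 63.8, 119 and 73.8 CPM in the ApoE-/- libraries, beside 73.1, 71.7 and 70.6 CPM in the double mutant libraries. Only ApoE-/- 2 stood away from the other 5 libraries. Its log2 fold change was -0.26 (SE 0.25, adjusted p = 0.635), and it was 0.07 (SE 0.14, adjusted p = 0.872) without ApoE-/- 2. The trimeric branch thus held 1 gene whose ApoE-/- libraries reached up to the double mutants (Thbs1) and 1 whose ApoE-/- libraries lay on both sides of them (Thbs2).

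Among the pentameric genes, Thbs4 had the largest fold change of the 10 and the lowest level. Thrombospondin-4 is a matrix protein of tendon, heart, skeletal muscle and nerve (ENSMUSG00000021702, chromosome 13, 92751590 to 92794818, minus strand). Its counts were 52, 44 and 167 in ApoE-/- and 296, 182 and 159 in the double mutants, in libraries of smaller totals. That is 0.621, 0.631 and 2.08 CPM against 6.82, 3.82 and 3.70 CPM, with no overlap. The log2 fold change was 2.10 (SE 0.61, adjusted p = 0.179, a 4.30-fold higher fitted level), which did not pass. DESeq2 placed it past the threshold (2.12, SE 0.61, adjusted p = 0.0103), and limma-voom with sample weights did as well (2.54, SE 0.72, adjusted p = 0.0481). Muscle and nerve markers were also higher in level in the double mutants. The 6 cardiac markers summed to 26.3 to 80.2 CPM in ApoE-/- and 395, 198 and 350.1 CPM in double mutants 1, 2 and 3, with Nppa at 0 in ApoE-/- 2, and 1 of 6 rose (Tnnt2, log2 fold change 1.89, SE 0.28, adjusted p = 0.0420). The Tnnt2 call was lost with the length trend removed (adjusted p = 0.0852), with the replicate block (adjusted p = 0.179) and without any 1 library other than ApoE-/- 1 (adjusted p = 0.0583 to 0.232). The 6 skeletal muscle markers summed to 2.88 to 8.54 against 66.8, 16.1 and 268 CPM in double mutants 1, 2 and 3, with Myh4 at 0 in ApoE-/- 2, Myh1 at 0 in ApoE-/- 2 and 3, and 0 of 6 called. The 6 Schwann cell markers summed to 179.7 to 225 against 334, 317 and 289.7 CPM in double mutants 1, 2 and 3, with 0 of 6 called. Among the double mutants Thbs4, the cardiac sum and the Schwann cell sum were highest in double mutant 1, and the skeletal muscle sum in double mutant 3. Among the ApoE-/- libraries Thbs4 and the Schwann cell sum were highest in ApoE-/- 3. The cardiac sum (80.2, 26.3 and 41.8 CPM) and the skeletal muscle sum (8.54, 2.88 and 5.56 CPM) were highest in ApoE-/- 1. The part of these tissues in the Thbs4 values was not tested.

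Comp encodes cartilage oligomeric matrix protein, which binds collagens and is also made by vascular smooth muscle (ENSMUSG00000031849, chromosome 8, 70373558 to 70382066, plus strand). The ApoE-/- libraries held 51.0, 58.4 and 54.7 CPM of Comp, the double mutants 64.0, 77.4 and 68.8 CPM. The groups did not overlap, and Comp had the smallest coefficient of variation within ApoE-/- of the 10 genes (6.76%). The difference was 0.36 on the log2 scale (SE 0.14, adjusted p = 0.296), and it ran from 0.28 to 0.45 over 16 alternative settings without passing in any (adjusted p = 0.112 to 0.683).

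Thbs3, the third pentameric gene, encodes a matrix protein of skeleton and other connective tissue (ENSMUSG00000028047, chromosome 3, 89215180 to 89226837, plus strand). Its level was 59.8, 95.3 and 111 CPM in ApoE-/- 1, 2 and 3, beside 54.9, 61.1 and 60.4 CPM in the double mutant libraries. ApoE-/- 1 lay among the double mutants and ApoE-/- 2 and 3 lay above them. The log2 fold change was -0.59 (SE 0.24, adjusted p = 0.308) with all libraries and -0.81 (SE 0.11, adjusted p = 0.00627) against ApoE-/- 2 and 3 alone. In GENCODE M21 the whole of Thbs3 (11658 bases) lies within the span of Mtx1 on the opposite strand, and no source used here states the strand setting of the counting, so reads of the pair could have been mixed. Mtx1 itself was at a mean of 26.8 CPM in ApoE-/- and 26.6 CPM in the double mutants.

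Chad encodes chondroadherin, a leucine-rich cartilage protein that binds collagen and integrin alpha2-beta1 (ENSMUSG00000039084, chromosome 11, 94565047 to 94569127, plus strand). Its counts were 189, 139 and 115 in ApoE-/- and 178, 308 and 245 in the double mutants, which is 2.26, 1.99 and 1.43 CPM against 4.10, 6.47 and 5.70 CPM. The groups did not overlap, and Chad had the smallest p of the 10 genes. The log2 fold change was 1.52 (SE 0.34, adjusted p = 0.107, a 2.86-fold higher fitted level), and the spread relative to the mean was alike in the groups (22.3% and 22.3%). DESeq2 called it (1.52, SE 0.34, adjusted p = 2.485e-04), as did the weighted limma-voom fit (1.47, SE 0.42, adjusted p = 0.0478) and the fit without ApoE-/- 1 (1.66, SE 0.34, adjusted p = 0.0196). All of Chad lies within the span of Acsf2 on the other strand, so the same limit on strand applies. Acsf2 was at 38.4 CPM in ApoE-/- and 34.1 CPM in the double mutants on average.

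Chad and Comp did not overlap between the groups, and no cartilage or tendon gene was called. Of 17 such genes 16 were tested, 0 rose and 0 fell, and the median log2 fold change was -0.03. Their summed level was 172 to 389 CPM in ApoE-/- and 319 to 389 CPM in the double mutants. By smallest p they were led by the matrix link gene Hapln1 (-1.06, SE 0.47, adjusted p = 0.338), the tendon homeobox gene Mkx (-1.63, SE 0.74, adjusted p = 0.350) and the lubricin gene Prg4 (1.30, SE 0.67, adjusted p = 0.390). Among defining markers, Matn3 was at 0 in ApoE-/- 1 and double mutants 1 and 2, and Tnmd at 0 in double mutant 3.

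The start-site windows of Thbs4 and Chad, the 2 genes called by DESeq2, and of Postn, the gene with the largest negative fold change, are printed. Each is the 250 bases before the start from RefSeq (GRCm38.p6), read 5′ to 3′ on the gene's own strand: chr13:92794819-92795068 (minus) for Thbs4, chr11:94564797-94565046 (plus) for Chad and chr3:54360857-54361106 (plus), the second of 2 listed starts, for Postn. Capitals mark matches on either strand to the TATA box (letters TATAAA), the GC box (letters GGGCGG), the TEAD motif (letters CATTCC), the SMAD motif (letters CAGACA), the AP-1 motif (letters TGACTCA), the E-box (letters CACGTG) or the CArG box of serum response factor.
Thbs4: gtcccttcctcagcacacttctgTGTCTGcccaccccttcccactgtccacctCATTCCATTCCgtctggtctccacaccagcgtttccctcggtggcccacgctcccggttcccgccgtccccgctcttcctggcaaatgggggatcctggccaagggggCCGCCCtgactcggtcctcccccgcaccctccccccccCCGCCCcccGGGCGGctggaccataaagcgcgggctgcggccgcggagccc
Chad: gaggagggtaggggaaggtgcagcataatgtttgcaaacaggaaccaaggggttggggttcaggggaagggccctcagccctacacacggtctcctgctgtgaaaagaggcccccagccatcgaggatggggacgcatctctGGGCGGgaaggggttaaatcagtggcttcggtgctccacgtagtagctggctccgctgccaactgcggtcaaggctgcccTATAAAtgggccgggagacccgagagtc
Postn: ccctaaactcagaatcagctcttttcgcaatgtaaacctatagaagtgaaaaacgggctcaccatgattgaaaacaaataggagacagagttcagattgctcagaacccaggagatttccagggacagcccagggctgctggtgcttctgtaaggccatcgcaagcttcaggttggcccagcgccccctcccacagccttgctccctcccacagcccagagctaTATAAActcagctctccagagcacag
The Thbs4 window is GC-rich (70.8% against a median of 52.4% over 32851 windows) and holds 3 GC boxes, 1 CAGACA on the minus strand and 2 CATTCC matches that overlap by 1 base, with no TATAAA. The Chad window (60.4% GC) holds TATAAA from -28 to -23 before the start and 1 GC box, and the Postn window (52.0% GC) holds TATAAA from -26 to -21 and no other match. Of all windows of this length, the TATA box letters occur in 12.4%, those of the GC box in 32.7%, the TEAD motif in 12.6%, the SMAD motif in 17.1%, the AP-1 motif in 4.46%, the E-box in 6.02% and the CArG box in 1.47%. Of the 10 genes 7 had a window (9 windows in all). None of the 9 held the AP-1, E-box or CArG letters, which says only that these letters are not in these windows. Thbs1, Comp and Fn1 had no entry.

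Postn encodes periostin, which binds collagen, BMP1 and alpha-v integrins and promotes collagen crosslinking (ENSMUSG00000027750, chromosome 3, 54361109 to 54391037, plus strand). ApoE-/- 1, 2 and 3 held 550.2, 2559.7 and 2397 CPM of Postn, the double mutants 789.6, 850.0 and 783 CPM. ApoE-/- 1 was the lowest of the 6 libraries and ApoE-/- 2 and 3 the highest, at 3.17 and 2.97 times the double mutant mean. On the log2 scale the difference was -1.18 (SE 0.57, adjusted p = 0.367), and -1.62 (SE 0.13, adjusted p = 0.00193) against ApoE-/- 2 and 3 alone, where 12.8% of all genes were called lower. The summed smooth muscle markers were likewise lowest in ApoE-/- 1 and highest in ApoE-/- 2 and 3. Against ApoE-/- 2 and 3 alone 7 of these 8 markers were called lower, with a median log2 fold change of -1.43, and with all libraries 0 were called and the median was -0.96. Their part in the Postn values was not tested.

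Tnc encodes tenascin-C, a hexameric protein of injured and remodelling tissue that binds fibronectin and integrins (ENSMUSG00000028364, chromosome 4, 63959785 to 64047015, minus strand). The ApoE-/- libraries held 81.7, 139 and 235 CPM of Tnc, the double mutants 144, 146 and 162 CPM. All 3 double mutant libraries lay between the ApoE-/- extremes, and the log2 fold change was -0.01 (SE 0.37, adjusted p = 0.990). Its sign changed under 10 of 16 alternative settings, to 0.44 (SE 0.26) without ApoE-/- 3, so no direction is given for Tnc.

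Sparc encodes osteonectin, a calcium- and collagen-binding protein that helps collagen assembly (ENSMUSG00000018593, chromosome 11, 55394500 to 55423183, minus strand). Its level was 1576, 2124 and 2713 CPM in the ApoE-/- libraries, beside 1829, 1995 and 1817 CPM in the double mutant libraries. Here too the double mutants lay inside the ApoE-/- range (log2 fold change -0.19, SE 0.31, adjusted p = 0.789).

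Fn1 encodes fibronectin, the adhesive glycoprotein on which collagen and several matricellular proteins assemble (ENSMUSG00000026193, chromosome 1, 71585520 to 71653200, minus strand). The ApoE-/- libraries held 2484, 3719 and 2057 CPM of Fn1, the double mutants 3744, 4328 and 4379 CPM. The groups did not overlap, but ApoE-/- 2 and double mutant 1 were nearly equal. The difference was 0.59 on the log2 scale (SE 0.35, adjusted p = 0.435). With each library's trend of expression on transcript length removed it was 0.95 (SE 0.29, adjusted p = 0.242), still short of the threshold.

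**Figure D2:**
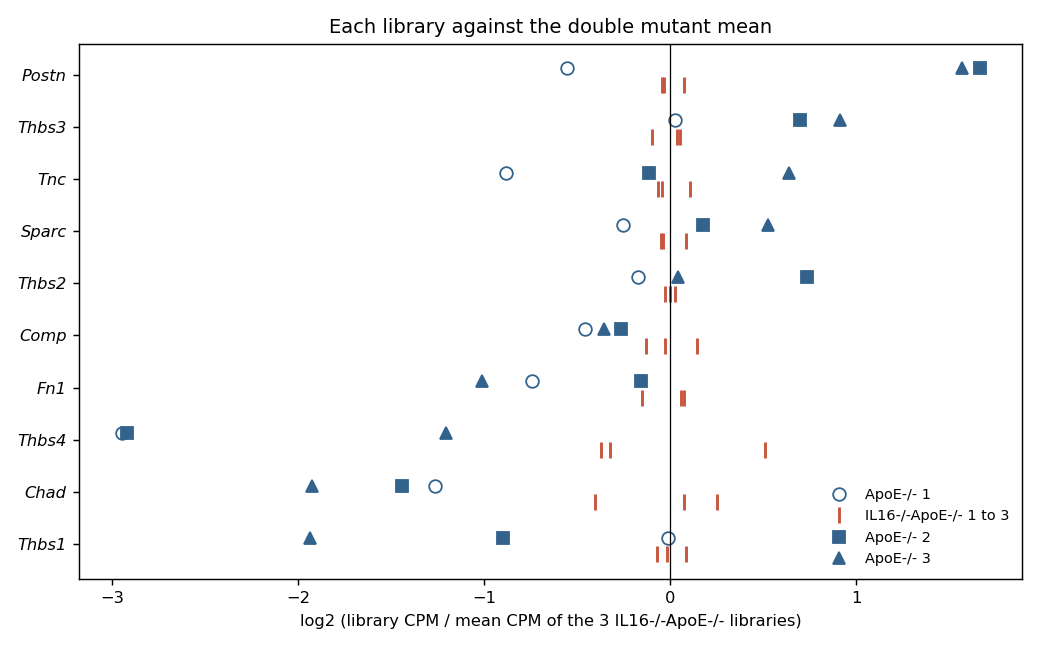
The x axis is the log2 ratio of each library's CPM to the mean of the 3 double mutant libraries, and rows are the 10 genes ordered by ApoE-/- 3. ApoE-/- 1 sits at the double mutant mean for Thbs1 (-0.01) and Thbs3 (0.02) while ApoE-/- 2 and 3 sit away from it, and all 3 ApoE-/- libraries sit left of the double mutants for Chad, Thbs4, Comp and Fn1.

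The spread within the groups was unequal for most of these genes. The coefficient of variation was larger in ApoE-/- than in the double mutants by over 1 percentage point for 8 of the 10, alike for Chad (22.3% in both) and smaller for Comp, with medians of 33.0% and 6.18%. Over all tested genes the biological coefficient of variation was 0.590 in ApoE-/- and 0.209 in the double mutants. For 4 genes (Thbs2, Postn, Tnc and Sparc) all double mutant values lay within the ApoE-/- range. The test uses 1 estimate of the spread for both groups.

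Leaving out ApoE-/- 1 placed 4 of the 10 past the threshold. Thbs1 and Chad were higher and Thbs3 and Postn lower in the double mutants, in a fit that called 13.1% of all genes higher and 12.8% lower. Leaving out any other single library placed 0 of the 10 past it. The weighted limma-voom fit called Thbs1, Thbs4 and Chad higher and Thbs3 and Postn lower, against 9.39% and 7.5% of all genes.

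**Figure D3:**
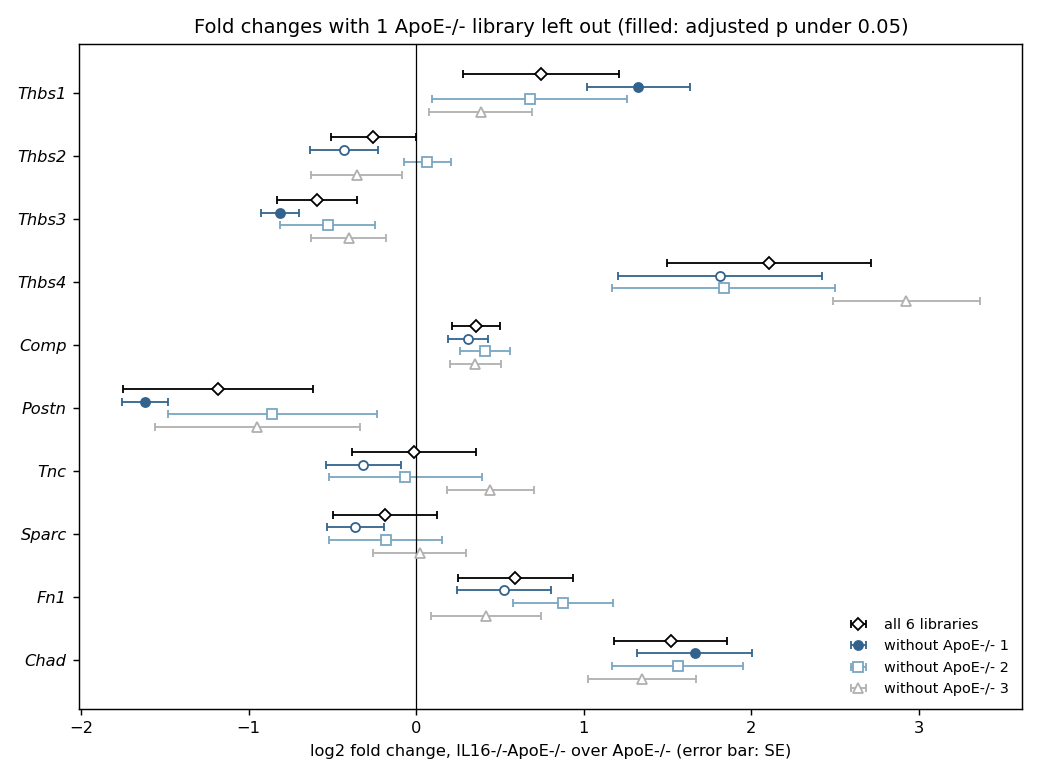
Points are log2 fold changes of double mutant over ApoE-/- with SE bars, from all 6 libraries or with 1 ApoE-/- library left out, and filled points have an adjusted p under 0.05. The filled points are Thbs1 (1.33), Thbs3 (-0.81), Postn (-1.62) and Chad (1.66), all from the fit without ApoE-/- 1.

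Compared per length of transcript (CPM per kilobase over the median annotated transcript length), Sparc was the most abundant of the 10 in both groups, at 1565 ± 416 in ApoE-/- and 1377 ± 72.9 CPM per kb in the double mutants (SD, n = 3). In the double mutants it was followed by Fn1 (536 ± 45.6), Postn (256 ± 11.7), Thbs1 (70.6 ± 3.96), Comp (29.0 ± 2.80), Tnc (21.6 ± 1.42), Thbs3 (19.0 ± 1.10), Thbs2 (12.2 ± 0.22), Chad (3.23 ± 0.72) and Thbs4 (1.49 ± 0.55). No neighbours in that order overlapped in range. In ApoE-/- the order was Sparc, Postn (582 ± 354), Fn1 (355 ± 111), Thbs1 (42.1 ± 26.1), Thbs3 (28.7 ± 8.45), Comp (22.6 ± 1.53), Tnc (21.8 ± 11.1), Thbs2 (14.5 ± 5.03), Chad (1.13 ± 0.25) and Thbs4 (0.35 ± 0.26). There Postn and Fn1 overlapped, as did each pair of neighbours from Thbs1 to Thbs2. With the longest transcript in place of the median one, Sparc was at 929.6 and 818 CPM per kb and still first.

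Sparc, Fn1 and Postn together made up most of the summed per-length level of the 10 genes. Postn took 9.78%, 27.2% and 24.2% of it in ApoE-/- 1, 2 and 3, beside 10.8% to 11.3% for the double mutants. Fn1 took 18.0%, 16.1% and 8.47% against 21.7% to 24.5%, and Sparc 64.7%, 52.2% and 63.3% against 57.7% to 60.2%. The Postn share of ApoE-/- 1 was thus the closest of the 3 to the double mutants, and the Fn1 share was higher in each double mutant library than in any ApoE-/- library. Share sizes depend on the length used, which for Sparc was 1366 bases at the median and 2300 in its longest transcript. With the longest transcripts, mean Sparc, Fn1 and Postn levels were 818, 499 and 252 CPM per kb in the double mutants. Shares were not computed on those lengths.

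Other matricellular genes showed no calls with all libraries. Of 20 listed genes 19 were tested, 0 rose and 0 fell, 12 had positive fold changes and the median log2 value was 0.22. Over all tested genes 9212 of 19833 had positive fold changes. Spp1, the osteopontin of macrophages and calcifying plaque, ranged over 70.8 to 1877 CPM in ApoE-/- and 3642 to 5070.3 CPM in the double mutants without passing (log2 fold change 1.88, SE 1.01, adjusted p = 0.404). The CCN family member Ccn3 ranged over 215 to 1014 CPM in ApoE-/- beside 349.5 to 372 CPM (-0.93, SE 0.54, adjusted p = 0.435), and the proteoglycan gene Spock2 over 16.5 to 30.8 CPM beside 24.7 to 37.5 CPM (0.44, SE 0.27, adjusted p = 0.464). Against ApoE-/- 2 and 3 alone, 2 of the 19 were called higher and 5 lower, where 13.1% and 12.8% of all genes were. The 8 macrophage markers summed to 396 to 4593 CPM in ApoE-/- and 4362 to 6203 CPM in the double mutants, with 0 called and no marker at 0, and their part in the Spp1 values was not tested.

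Receptors of these proteins had mostly negative fold changes. Of 17 genes, 0 were called, 12 had negative values and the median was -0.33. Over all tested genes 10621 of 19833 had negative values and the median was -0.05. Itgb3 and Itgav, the chains of the alpha-v beta-3 integrin that binds fibronectin, thrombospondin-1 and periostin, were at 71.2, 153 and 180.0 CPM and 75.1, 165 and 168 CPM in ApoE-/- 1, 2 and 3. In the double mutants they were at 69.8 to 76.4 and 77.1 to 82.0 CPM, close to ApoE-/- 1. Their log2 fold changes were -0.90 (SE 0.34, adjusted p = 0.281) and -0.77 (SE 0.32, adjusted p = 0.310). The chaperone and thrombospondin co-receptor Calr ranged over 388 to 611 CPM in ApoE-/- beside 663 to 745 CPM (0.56, SE 0.27, adjusted p = 0.365). Against ApoE-/- 2 and 3 alone, 8 of the 17 receptors were called lower and 0 higher, where 12.8% and 13.1% of all genes were. In that fit 7 of the 8 smooth muscle markers were also called lower, and Itga8, a receptor chain of smooth muscle named here after its values were seen, was at 370, 2492 and 3462 CPM in ApoE-/- 1, 2 and 3 beside 702 to 817 CPM. The part of smooth muscle in the receptor values was not tested.

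Collagen partners and processing genes split between directions, with 5 of 12 positive, 0 called and a median of -0.11. Against ApoE-/- 2 and 3 alone, 1 of the 12 was called higher and 4 lower, where 13.1% and 12.8% of all genes were. The growth factor Tgfb3 was at 96.3, 155 and 237 CPM in ApoE-/- and 78.2 to 90.4 CPM in the double mutants (-0.92, SE 0.33, adjusted p = 0.259), and the crosslinking enzyme Lox had 196, 406 and 468 CPM beside 186 to 209.9 CPM (-0.86, SE 0.34, adjusted p = 0.295). Tgfb1, which thrombospondin-1 can activate, ranged over 43.0 to 79.1 CPM beside 82.2 to 90.1 CPM (0.48, SE 0.24, adjusted p = 0.374). The 8 fibroblast markers summed to 2657.5 to 5234 CPM in ApoE-/- and 3919 to 4334 CPM in the double mutants, with 0 called.

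**Figure D4:**
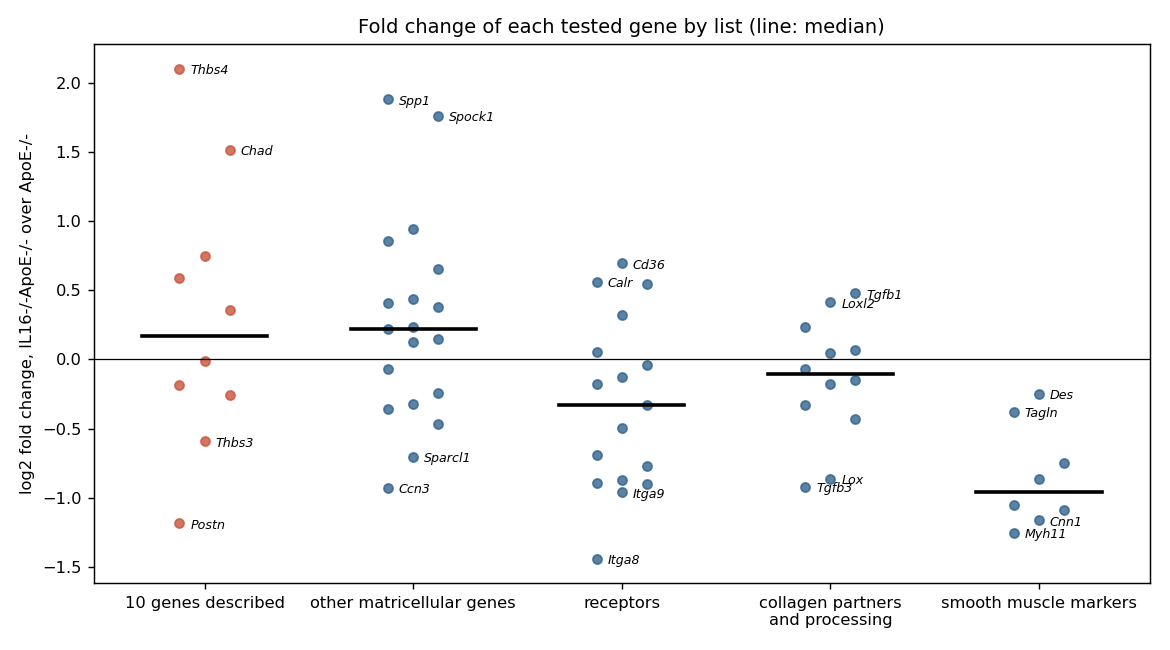
Each point is the log2 fold change of 1 tested gene, double mutant over ApoE-/-, and lines are list medians, with the extreme genes named. The medians are 0.17 for the 10 genes described, 0.22 for other matricellular genes, -0.33 for receptors, -0.11 for collagen partners and -0.96 for smooth muscle markers.

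Over the 6 libraries the 10 genes did not vary as 1 set. Pearson's r of log2 CPM, given as a description over 6 libraries that share group and library differences, was highest for Thbs3 with Postn (0.94) among the 45 pairs, followed by Comp with Chad (0.89). It was most negative for Thbs1 with Thbs3 (-0.96), Sparc (-0.92) and Postn (-0.87). Among 11332 other genes with a mean of at least 5 CPM, the nearest in pattern were Icam1, Kng2 and Eno1b for Thbs1 (r of 1.00, 1.00 and 1.00 after rounding), and Pard3, Itgb1 and Epn2 for Postn (0.999, 0.999 and 0.999). For Thbs3 they were Tmx4, Jmy and Xrcc5 (0.998, 0.998 and 0.997), for Thbs2 Exoc4, Arhgef11 and Aff1 (0.992, 0.990 and 0.988), and for Tnc Dph7, Glt8d1 and Polr1b (0.994, 0.992 and 0.990). For Sparc they were Champ1, Fam20a and Ankrd39 (0.995, 0.993 and 0.992), and for Fn1 Unc5b, Itm2c and Fam129b (0.996, 0.995 and 0.993). For Thbs4 they were Shroom4, Acy1 and Ndn (0.995, 0.987 and 0.982), for Chad Dnajc12, Pdia5 and Emp3 (0.990, 0.987 and 0.985), and for Comp Ltv1, Lxn and Hnrnpul1 (0.975, 0.975 and 0.972). Each is the highest of 11332 values and carries no test.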

How the data were processed

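Poly(A) RNA of 6 aorta samples was made into strand-marking libraries, per the labels' protocols. The authors deposited 1 table of raw read counts per gene, judged from its whole numbers and unequal totals. Per the submitters' processing notes, the tools were cutadapt, HISAT2 and StringTie, with no version named. Genome build, annotation, counting program and strand setting: not given in the sources used here. Symbols, positions and transcript lengths came from GENCODE M21 (GRCm38), which matched 55141 of 55401 IDs. Unmatched IDs held at most 0.0114% of a library's counts.

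Genes passing edgeR's filterByExpr (minimum count 10, total 15) numbered 19833. Counts were TMM-scaled and compared with edgeR's quasi-likelihood test (robust, without covariates, two-sided), and p was adjusted over all of them by Benjamini-Hochberg. The SE is the log2 fold change divided by the square root of F. Log2 CPM used a prior count of 2. Alternatives were other scalings, filters, DESeq2, limma-voom, a length correction, a replicate block and leaving out each library. The functions were tested on simulated data with the same spread in both groups, so the unequal spread of these libraries was not covered. R 4.3.3, edgeR 4.0.16, limma 3.58.1, DESeq2 1.42.0, Python 3.11.15 and matplotlib 3.10.9 were used. The genes, lists and tests were chosen with earlier results of these data known. All 10 genes are named, with the 3 genes nearest in pattern to each. From other lists up to 4 called genes were selected, or the 3 genes of smallest p if a list had no call. Cell type marker lists are given mostly as sums and counts, and not every gene so selected from them is named.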

Additional observations from a re-analysis of the deposited data

How the results depend on the processing

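All 10 genes kept their side of the threshold under RLE, upper-quartile or total-count scaling, both other filters, unweighted limma-voom, the length correction and the replicate block. Of the 10, DESeq2 called 2 higher, weighted limma-voom 3 higher and 2 lower, and fits without 1 library 0 to 2 higher and 0 to 2 lower. Over all genes, 226 were higher and 12 lower, against 1235 and 462 in DESeq2, 386 and 23 in limma-voom, 1863 and 1488 with sample weights, 0 and 0 with the replicate block (2327 at an unadjusted p under 0.05), and 0 to 2651 and 0 to 2580 without 1 library. The 0 came from leaving out any 1 double mutant library (1920 to 2042 genes at an unadjusted p under 0.05), and the highest counts from leaving out ApoE-/- 1. Without ApoE-/- 2 they were 101 and 7, and without ApoE-/- 3 they were 163 and 19. The length correction gave 151 and 16. The causes were not tested.

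Tnc turned positive with upper-quartile factors (0.0098), library totals (0.011), the CPM filter (0.011), limma-voom (0.11), sample weights (0.053), the length correction (0.35), the replicate block (0.11) and without ApoE-/- 3 (0.44), double mutant 1 (0.017) or double mutant 2 (0.011). Thbs2 turned positive with the length correction (0.085) and without ApoE-/- 2 (0.067), and Sparc without ApoE-/- 3 (0.019). Of the platelet markers, Itga2b turned positive with sample weights (0.48) and without ApoE-/- 1 (0.25), Gp9 likewise (1.61 and 0.94), and Gp1ba with sample weights (0.097). Without 1 library, Tnc ran from -0.32 to 0.44, Thbs2 from -0.43 to 0.067, Sparc from -0.36 to 0.019, Itga2b from -2.46 to 0.25 and Gp9 from -2.50 to 0.94. The other 7 genes kept their direction under all 16 alternatives.

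The labels do not say whether replicate numbers pair the samples. Deviations from the group means correlated at -0.040, -0.027 and -0.0095 between same-numbered libraries, and no library correlated best with its own number. With 3 libraries in each group these values cannot decide whether the numbers pair samples. Thbs4 and Chad had the fewest counts of the 10 genes, at 44 to 308 a library.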

Other observations

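Ratios between members within a library do not depend on library scaling. Their size does depend on the transcript lengths used, which were the median ones and the same for every library. These ratios were chosen after the values had been seen and carry no test. Per length, Thbs1 stood at 6.47, 1.87 and 1.47 times Thbs2 in ApoE-/- 1, 2 and 3 and at 5.62, 5.52 and 6.26 times in double mutants 1, 2 and 3. Fibronectin stood at 1.84, 0.59 and 0.35 times periostin in ApoE-/- and at 1.93, 2.07 and 2.28 times in the double mutants. In both ratios ApoE-/- 1 was near the double mutants and ApoE-/- 2 and 3 were well below them. Fn1 over Sparc was 0.28, 0.31 and 0.13 against 0.36, 0.38 and 0.43, with every double mutant library above every ApoE-/- library. Postn over Sparc was 0.187, 0.184 and 0.187 in the double mutants, nearly the same in each, against 0.151, 0.522 and 0.383 in ApoE-/-. Comp over Thbs3, both pentameric, was 1.09, 0.78 and 0.63 against 1.49, 1.62 and 1.46, again without overlap.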
